A study of Mus musculus with 6 samples.

Results

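The Polycomb repressive complex genes are described here in MOC2 cells, a mouse squamous carcinoma line of the head and neck that carries no papillomavirus. The 10 genes were chosen by symbol, with earlier results of these data known. They are Ezh2, Ezh1, Eed and Suz12, which encode the core of Polycomb repressive complex 2 (PRC2); Jarid2, Mtf2 and Phf19, which encode proteins that join that core; and Ring1, Bmi1 and Cbx2 of Polycomb repressive complex 1 (PRC1). All 10 had a row among the 55418 gene symbols of the count table, and all 10 were among the 15199 genes that passed the filter on low counts. Each is a single protein-coding locus in the GENCODE M21 annotation.

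Polyadenylated RNA was sequenced in 6 libraries and counted per gene. The libraries labelled EphA4 knockout (n = 3) come from the H3 clone, a single clone edited at Epha4, an ephrin receptor tyrosine kinase. The libraries labelled control CRISPR (n = 3) come from MOC2 cells given a control edit, and the labels do not say whether those are a clone or a pool. Cells of both groups were untreated, were grown as monolayers in the same medium and carry the same batch label. Separate cultures are not stated for the libraries of a group, so p-values measure the spread between these libraries, which may be technical, and 1 clone cannot be told apart from the edit it carries.

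Library totals ran from 35807059 to 37174736 counts in the knockout-labelled group and from 35115926 to 41775031 in the control group. Knockout-labelled replicate 3 stood apart from the other 2 of its group, with a chi-square per degree of freedom of 34.1 to 35.1 against 4.63 to 9.54 for the other within-group pairs. Leaving it out ended no call and turned no direction among the 10 genes. Transcripts of Epha4 went against the label, at 99.7 ± 3.27 CPM (the gene's count scaled to the size of its library) in the knockout-labelled libraries and 55.1 ± 4.26 CPM in the control libraries (SD, n = 3 each; log2 fold change 0.86, SE 0.06, edgeR quasi-likelihood adjusted p = 2.1e-06). Directions below therefore compare libraries by their labels and do not stand for a loss of Epha4 RNA. The epithelial genes Krt8, Krt18, Cdh1 and Epcam averaged 1637, 962, 800 and 627 CPM in the knockout-labelled libraries and 1340, 843, 725 and 954 CPM in the control libraries. Among basal squamous markers, Krt14 was low and called lower, averaging 1.83 CPM in the knockout-labelled and 3.72 CPM in the control libraries (log2 fold change -1.03). Krt5 had 0 counts over the knockout-labelled and 2 over the control libraries, and Trp63 had 2 over either group. Krt5 and Trp63 were thus at or near 0 in both groups.

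PRC2 is the enzyme that places methyl groups on lysine 27 of histone H3. Its catalytic subunit is either Ezh2, the form known from dividing cells, or Ezh1, the form known from resting and differentiated cells, and neither works without Eed and Suz12. Accessory proteins fall into alternative sets: Phf1, Mtf2 or Phf19 (the Polycomb-like proteins) bind DNA rich in CpG, while Jarid2 and Aebp2 mark the other form of the complex. PRC1 is a ubiquitin ligase for histone H2A built around Ring1 or Rnf2 and 1 PCGF protein such as Bmi1, and its canonical form carries a CBX protein such as Cbx2 that binds the PRC2 mark. Ezh2 and Bmi1 are known as repressors of Cdkn2a and of developmental genes.

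RefSeq promoter windows, from 250 bases before to 50 bases after an annotated start on build GRCm38.p6, were available for 9 of the 10 genes, in 11 windows, with none for Cbx2. Those of 4 PRC2 genes are shown because the genes moved in opposite directions: Ezh2 and Suz12 were higher in the knockout-labelled libraries, and Ezh1 and Phf19 were lower. Capitals mark matches, on either strand, to the E2F letters TTGGCGC or TTCGCGC and to the CCAAT letters. The windows are Ezh2 at chr6:47594981-47595280 (minus strand), Suz12 at chr11:79992856-79993155 (plus strand), Ezh1 at chr11:101226414-101226713 (minus strand) and Phf19 at chr2:34913927-34914226 (minus strand), each written 5′ to 3′ along its gene.
Ezh2: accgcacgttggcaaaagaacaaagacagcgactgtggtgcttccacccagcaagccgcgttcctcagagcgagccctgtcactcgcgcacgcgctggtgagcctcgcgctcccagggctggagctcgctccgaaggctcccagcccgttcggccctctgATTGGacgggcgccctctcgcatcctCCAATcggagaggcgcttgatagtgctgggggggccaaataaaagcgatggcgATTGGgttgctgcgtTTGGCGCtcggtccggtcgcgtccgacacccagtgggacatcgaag
Suz12: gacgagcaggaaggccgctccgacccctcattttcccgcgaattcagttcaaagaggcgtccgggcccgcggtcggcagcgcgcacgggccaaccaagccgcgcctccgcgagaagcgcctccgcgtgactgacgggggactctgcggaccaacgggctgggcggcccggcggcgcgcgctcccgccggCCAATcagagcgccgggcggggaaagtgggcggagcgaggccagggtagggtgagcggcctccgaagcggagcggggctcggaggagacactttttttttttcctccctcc
Ezh1: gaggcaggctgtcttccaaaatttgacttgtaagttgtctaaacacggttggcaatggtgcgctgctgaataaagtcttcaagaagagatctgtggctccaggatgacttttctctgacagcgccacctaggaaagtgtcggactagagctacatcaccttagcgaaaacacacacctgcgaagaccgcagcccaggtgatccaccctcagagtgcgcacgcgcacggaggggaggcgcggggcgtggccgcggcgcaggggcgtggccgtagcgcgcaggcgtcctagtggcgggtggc
Phf19: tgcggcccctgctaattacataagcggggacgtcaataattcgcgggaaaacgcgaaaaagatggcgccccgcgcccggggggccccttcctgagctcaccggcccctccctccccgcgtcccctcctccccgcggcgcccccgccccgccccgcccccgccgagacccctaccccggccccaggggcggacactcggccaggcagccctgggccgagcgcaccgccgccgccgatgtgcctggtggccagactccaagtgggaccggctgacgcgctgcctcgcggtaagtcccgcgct

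The E2F letters stood in the window of 1 of these 9 genes, Ezh2, just after its start, and in 3 of the 26 other Polycomb genes with a window, namely Rbbp4, Pcgf5 and Cbx6. By window, they stood in 1 of the 11 windows of the 9 genes and in 3.89% of the 32851 RefSeq windows of the same length. CCAAT stood in windows of 5 of the 9 genes (Ezh2, Eed, Suz12, Jarid2 and Mtf2). By window, it stood in 6 of the 11, against 37.4% of all windows. Neither string was found in the windows of Ezh1, Phf19, Bmi1 and Ring1. The matches did not divide the genes by direction: Jarid2, with CCAAT, was lower, and Bmi1, with neither string, was higher. The GC content was 64.3% for Ezh2, 71.0% for Suz12, 59.3% for Ezh1 and 74.3% for Phf19, where the median of all windows was 52.7%. Other forms of an E2F site were not searched for, so a window without a match is not shown to lack such a site. These matches describe letters in a window. No binding or histone mark was measured in this series.

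All 10 Polycomb genes differed between the groups in edgeR's quasi-likelihood test at a Benjamini-Hochberg adjusted p under 0.05. Ezh2, Eed, Suz12, Mtf2, Bmi1 and Cbx2 were higher in the knockout-labelled libraries, and Ezh1, Jarid2, Phf19 and Ring1 were lower. Over all 15199 genes tested, 71.5% were called in the same test, 32.7% as higher and 38.8% as lower, so that 10 of 10 has to be read against a background in which most genes passed. Annotated genes on the opposite strand overlap exons of Ezh2, Eed and Suz12, but none of those partners exceeded 0.514 CPM. The groups did not overlap for any of the 10 genes, and did not overlap for 76.1% of all genes tested. At least a doubling or halving (an absolute log2 fold change of 1) was reached by Bmi1, Ezh1 and Phf19, 3 of 10, where 30.5% of all genes tested were called with such a change. The median log2 fold change of the 10 was 0.38, beside -0.04 over all genes tested, and their median absolute log2 fold change was 0.59, beside 0.65. Against all genes tested, 8.64% moved by more than Phf19, 29.5% by more than Ezh1, 32.5% by more than Bmi1 and 75.3% by more than Suz12.

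**Figure D1:**
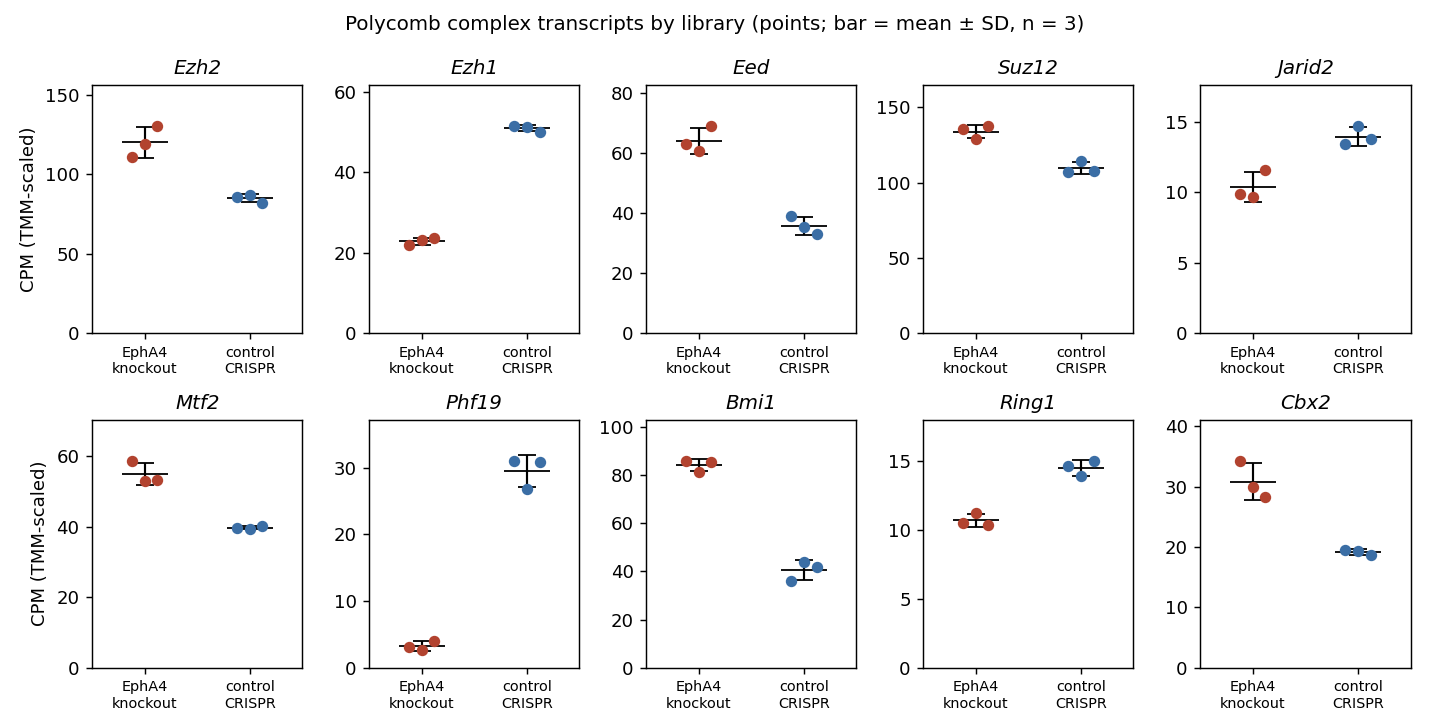
TMM-scaled CPM of the 10 Polycomb genes, a panel per gene with its own vertical axis; points are the 6 libraries, with EphA4 knockout left of control CRISPR, and bars show the mean and SD of 3. In no panel do the groups overlap, and the largest fold is that of Phf19, at 2.66 to 4.03 CPM in the knockout-labelled libraries and 26.8 to 31.0 CPM in the control libraries.

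The 2 alternative PRC2 enzymes moved in opposite directions. Ezh2 had 110.7, 118.9 and 130.1 CPM in the knockout-labelled libraries, against 85.5, 87.1 and 82.1 CPM in the control libraries. Its mean was 119.9 ± 9.73 CPM in the knockout-labelled and 84.9 ± 2.55 CPM in the control libraries (SD, n = 3 each), a log2 fold change of 0.50 (SE 0.06, edgeR quasi-likelihood adjusted p = 6.7e-05). The lowest knockout-labelled library lay above the highest control library, and knockout-labelled replicate 3 was the highest of all.

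Ezh1 had 21.9, 23.2 and 23.6 CPM in the knockout-labelled libraries, against 51.5, 51.3 and 50.2 CPM in the control libraries. It averaged 22.9 ± 0.883 CPM in the knockout-labelled and 51.0 ± 0.708 CPM in the control libraries (SD, n = 3 each), 2.23-fold lower in the knockout-labelled libraries (log2 fold change -1.16, SE 0.06, edgeR quasi-likelihood adjusted p = 2.1e-07). Replicates of either group were close to each other and far from the other group. Per kilobase of exon, the Ezh2 level was 42.8 CPM per kb in the knockout-labelled and 30.3 CPM per kb in the control libraries, and that of Ezh1 was 3.76 CPM per kb in the knockout-labelled and 8.39 CPM per kb in the control libraries. Ezh2 was thus the more abundant enzyme transcript per length in both groups.

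The ratio of Ezh2 to Ezh1 counts within a library needs no scaling between libraries. It was 5.05, 5.13 and 5.51 in the knockout-labelled libraries, against 1.66, 1.70 and 1.64 in the control libraries, so the ratio was 3.14-fold higher in the knockout-labelled group. The difference of the log2 ratios was 1.65, with p = 0.1 in an exact two-sided permutation test, which is the smallest p that 3 against 3 libraries can give. Of the summed Ezh1 and Ezh2 level per kilobase, Ezh1 made up 8.10% ± 0.342 in the knockout-labelled and 21.7% ± 0.312 in the control libraries (SD, n = 3 each). The sum itself was 46.6 ± 3.61 CPM per kb in the knockout-labelled and 38.7 ± 1.02 CPM per kb in the control libraries.

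The partners that both enzymes need were higher in the knockout-labelled libraries, as Ezh2 was and Ezh1 was not. Eed, which reads the mark that PRC2 places, had 62.9, 60.6 and 69.0 CPM in the knockout-labelled libraries, against 39.1, 35.2 and 32.9 CPM in the control libraries. The log2 fold change of Eed was 0.84 (SE 0.08, edgeR quasi-likelihood adjusted p = 1.1e-05), and the groups were well apart. Suz12, the scaffold on which the accessory proteins assemble, had 136, 129 and 138 CPM in the knockout-labelled libraries, against 107, 114 and 108 CPM in the control libraries. Its log2 fold change was 0.29 (SE 0.04, edgeR quasi-likelihood adjusted p = 0.00022), the smallest in absolute size of the 10. The lowest knockout-labelled library still lay above the highest control library. The ratio of Eed to Suz12 counts was 0.464, 0.470 and 0.502 in the knockout-labelled libraries and 0.365, 0.309 and 0.306 in the control libraries, again with an exact two-sided permutation p of 0.1. Rbbp4 and Rbbp7, the histone-binding subunits that PRC2 shares with other complexes, were higher as well. Rbbp4 averaged 191.9 CPM in the knockout-labelled and 163 CPM in the control libraries (log2 fold change 0.24), and Rbbp7 averaged 324 CPM in the knockout-labelled and 261 CPM in the control libraries (0.32).

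Among the accessory genes of PRC2, the Polycomb-like genes changed in opposite directions. Phf19, a Polycomb-like protein, had 3.11, 2.66 and 4.03 CPM in the knockout-labelled libraries, against 31.0, 26.8 and 30.9 CPM in the control libraries. These values rest on 111, 98 and 148 counts in the knockout-labelled and 1150, 946 and 1288 counts in the control libraries. Phf19 was 9.06-fold lower in the knockout-labelled libraries (log2 fold change -3.18, SE 0.16, edgeR quasi-likelihood adjusted p = 2.4e-07), the change of greatest absolute size among the 10. Its relative spread was the widest of the 10 in the knockout-labelled group, with a coefficient of variation of 21.4% there and 8.15% in the control group, and knockout-labelled replicate 3 was the highest of its group.

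Mtf2, another Polycomb-like protein, had 58.6, 53.0 and 53.3 CPM in the knockout-labelled libraries, against 39.7, 39.2 and 40.1 CPM in the control libraries. Its log2 fold change was 0.47 (SE 0.06, edgeR quasi-likelihood adjusted p = 6.6e-05), opposite in direction to Phf19, and the groups were apart. Mtf2 shares 395 exonic bases with Tmed5, which was higher too, at 139.9 to 145 CPM in the knockout-labelled and 115 to 129 CPM in the control libraries (log2 fold change 0.25, edgeR quasi-likelihood adjusted p = 0.0013). The strand setting of the counting is not given in the sources used here, and the part of Tmed5 reads in the Mtf2 value was not tested. The third Polycomb-like gene, Phf1, was lower, at 17.5 ± 0.316 CPM in the knockout-labelled and 50.2 ± 3.21 CPM in the control libraries (SD, n = 3 each; log2 fold change -1.52, edgeR quasi-likelihood adjusted p = 1.1e-07).

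Phf1 shares 1370 exonic bases with Cuta on the opposite strand, which had 34.5 to 39.4 CPM in the knockout-labelled and 32.5 to 43.6 CPM in the control libraries and did not pass the test (edgeR quasi-likelihood adjusted p = 0.77).

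Within the Polycomb-like family the order of the transcripts therefore differed between the groups. Of the summed level per kilobase of exon, Mtf2 made up 64.3% ± 1.19 in the knockout-labelled and 26.7% ± 1.12 in the control libraries (SD, n = 3 each). Phf1 made up 31.5% ± 0.750 in the knockout-labelled and 51.8% ± 1.31 in the control libraries, and Phf19 made up 4.15% ± 0.901 in the knockout-labelled and 21.5% ± 1.06 in the control libraries. Mtf2 was thus the leading family transcript in each knockout-labelled library and Phf1 in each control library. The family sum was 21.0 ± 0.886 CPM per kb in the knockout-labelled and 36.7 ± 1.74 CPM per kb in the control libraries. The ratio of Phf19 to Mtf2 counts was 0.0532, 0.0504 and 0.0758 in the knockout-labelled libraries, against 0.781, 0.683 and 0.770 in the control libraries, 12.6-fold lower in the knockout-labelled group with an exact two-sided permutation p of 0.1.

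Jarid2, a Jumonji family protein of the other accessory set that lacks demethylase activity, had 9.87, 9.65 and 11.6 CPM in the knockout-labelled libraries, against 13.4, 14.7 and 13.8 CPM in the control libraries. It was lower in the knockout-labelled libraries, with a log2 fold change of -0.43 (SE 0.11, edgeR quasi-likelihood adjusted p = 0.0080), the largest adjusted p of the 10. The groups did not overlap, but knockout-labelled replicate 3 came closest to the control range. Aebp2, its partner in that set, moved the other way, at 68.8 ± 2.61 CPM in the knockout-labelled and 52.1 ± 2.30 CPM in the control libraries (SD, n = 3 each; log2 fold change 0.40). The ratio of Jarid2 to Aebp2 counts was 1.78-fold lower in the knockout-labelled group, with an exact two-sided permutation p of 0.1. Epop, which ties PRC2 to elongin, had a log2 fold change of 0.40. Lcor, whose locus also encodes the PRC2-associated protein PALI1, averaged 34.4 ± 1.37 CPM in the knockout-labelled and 8.56 ± 2.15 CPM in the control libraries (SD, n = 3 each), 4.02-fold higher in the knockout-labelled group (edgeR quasi-likelihood adjusted p = 4.2e-06). Counts per gene do not separate its isoforms. Of the 7 PRC2 genes outside the 10, 5 were higher and 1 (Phf1) was lower, beside 32.7% higher and 38.8% lower among all genes tested. Ezhip, a PRC2 inhibitor, was below the filter with 8 counts in 1 knockout-labelled library and 0 in the other 5 libraries.

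**Figure D2:**
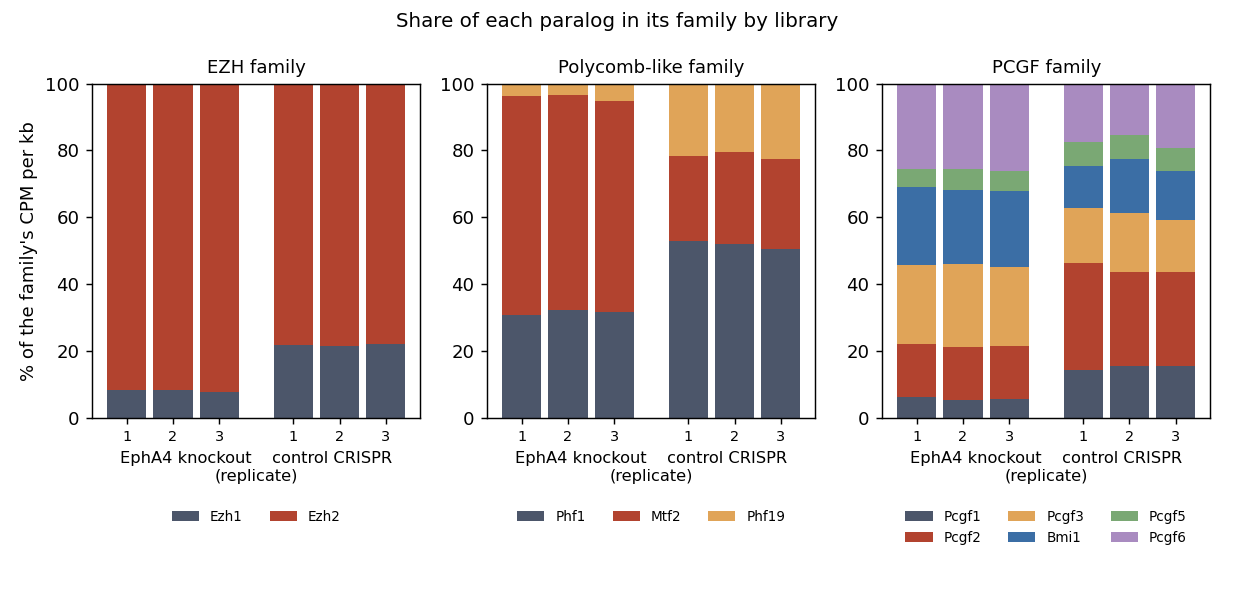
Share of each gene in the summed CPM per kb of its family, in percent, for the EZH, Polycomb-like and PCGF families; each bar is 1 library, with the 3 EphA4 knockout libraries left of the 3 control CRISPR libraries. Mtf2 takes 63.2% to 65.5% of the Polycomb-like family in the knockout-labelled libraries and 25.4% to 27.6% in the control libraries, and Ezh1 takes 7.71% to 8.35% of the EZH family in the knockout-labelled libraries and 21.4% to 22.0% in the control libraries.

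In PRC1 the changes again ran both ways within families. Ring1, 1 of the 2 alternative ubiquitin ligases, had 10.5, 11.2 and 10.3 CPM in the knockout-labelled libraries, against 14.7, 13.9 and 15.0 CPM in the control libraries. It was lower in the knockout-labelled libraries, with a log2 fold change of -0.44 (SE 0.10, edgeR quasi-likelihood adjusted p = 0.0030) and no overlap. Rnf2, the other ligase, averaged 52.0 ± 4.05 CPM in the knockout-labelled and 55.0 ± 6.34 CPM in the control libraries (SD, n = 3 each), and its log2 fold change of -0.08 (95% interval -0.28 to 0.13, edgeR quasi-likelihood adjusted p = 0.45) did not pass. Trmt1l, which shares 158 exonic bases with Rnf2 on the opposite strand, was lower (log2 fold change -0.42), and its part in the Rnf2 value was not tested. Rnf2 was the more abundant of the pair per kilobase, making up 74.7% ± 1.2 of their sum in the knockout-labelled and 69.6% ± 3.07 in the control libraries.

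Bmi1, the PCGF protein best known in cancer and stem cells, had 85.7, 81.3 and 85.2 CPM in the knockout-labelled libraries, against 36.1, 43.9 and 41.9 CPM in the control libraries. It was 2.07-fold higher in the knockout-labelled libraries (log2 fold change 1.05, SE 0.07, edgeR quasi-likelihood adjusted p = 1.9e-06), the largest rise of the 10. Its control libraries were spread more widely than those of the other 9, with a coefficient of variation of 10.0% in the control and 2.90% in the knockout-labelled group. The annotated gene Gm5946 shares 650 of the 3917 stretches of 50 bases in Bmi1 transcripts. It had 0 to 2.64 CPM in the knockout-labelled libraries and 0 to 0.027 CPM in the control libraries, so reads of Bmi1 could be split between them.

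Pcgf2, the closest relative of Bmi1, was lower, at 45.1 ± 0.414 CPM in the knockout-labelled and 63.6 ± 5.82 CPM in the control libraries (SD, n = 3 each; log2 fold change -0.50, edgeR quasi-likelihood adjusted p = 0.00016). The ratio of Pcgf2 to Bmi1 counts was 0.528, 0.549 and 0.533 in the knockout-labelled libraries, against 1.94, 1.34 and 1.48 in the control libraries, 2.92-fold lower in the knockout-labelled group with an exact two-sided permutation p of 0.1. Among the PCGF genes of variant PRC1 complexes, Pcgf3 had a log2 fold change of 0.93 and Pcgf6 one of 0.96, Pcgf1 one of -1.02, and Pcgf5 one of 0.13 that did not pass (edgeR quasi-likelihood adjusted p = 0.095). Bmi1 made up 22.7% ± 0.396 of the PCGF sum per kilobase in the knockout-labelled and 14.4% ± 1.78 in the control libraries, and Pcgf2 made up 15.9% ± 0.105 in the knockout-labelled and 29.4% ± 2.23 in the control libraries. The PCGF sum ran from 98.6 to 101.5 CPM per kb in the knockout-labelled and from 73.4 to 78.2 CPM per kb in the control libraries.

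Cbx2, a CBX protein known for compacting chromatin, had 34.2, 29.9 and 28.3 CPM in the knockout-labelled libraries, against 19.5, 19.3 and 18.6 CPM in the control libraries. It was higher in the knockout-labelled libraries, with a log2 fold change of 0.69 (SE 0.08, edgeR quasi-likelihood adjusted p = 7.8e-05), and the groups were apart. Cbx8 was lower with a log2 fold change of -0.46, and Cbx6 (0.11) and Cbx7 (0.02) did not pass the test. The 95% interval of the Cbx7 log2 fold change ran from -0.22 to 0.25.

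The ratio of Cbx2 to Cbx8 counts was 3.56, 2.98 and 3.08 in the knockout-labelled libraries, against 1.47, 1.52 and 1.37 in the control libraries, 2.20-fold higher in the knockout-labelled group. The ratio of Cbx2 to Cbx7 counts was 1.85, 1.58 and 1.88 in the knockout-labelled libraries, against 1.11, 1.16 and 1.07 in the control libraries. The log2 ratios were 1.14 and 0.67 higher in the knockout-labelled group, so Cbx2 stood higher against either relative in every knockout-labelled library than in any control library. In all, 10 pairs of Polycomb genes were compared in this way, none overlapped between the groups, and each had an exact two-sided permutation p of 0.1, adjusted over the 10 pairs to 0.1. Ratios of other gene pairs were not computed, so this count has no background of its own. Of all single genes tested, 76.1% did not overlap either.

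**Figure D3:**
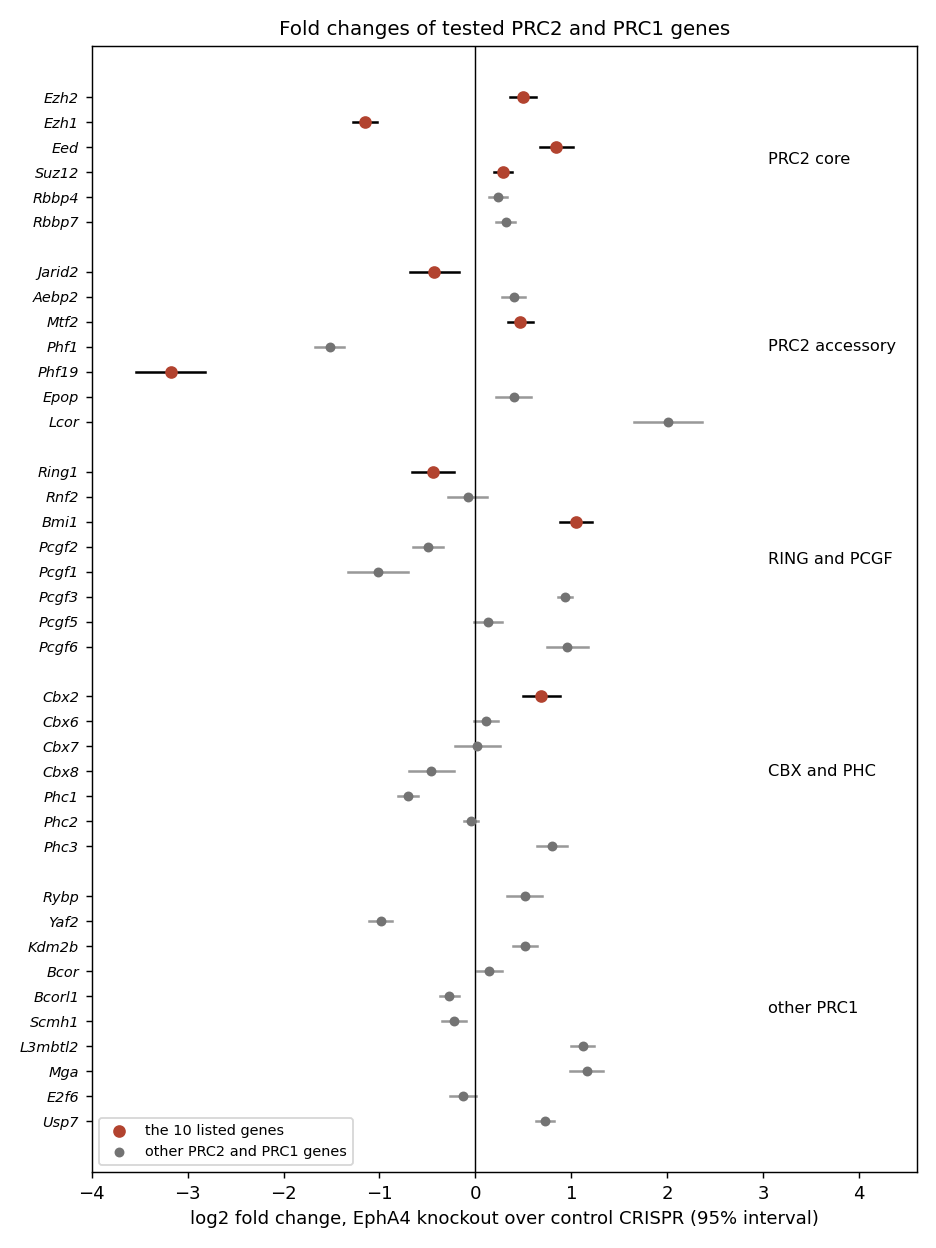
Log2 fold change, EphA4 knockout over control CRISPR, of tested PRC2 and PRC1 genes, with lines for the 95% interval; the 10 chosen genes are in red and the others in grey, and a value above 0 is higher in the knockout-labelled libraries. Phf19 lies farthest to the left at -3.18 and Lcor farthest to the right at 2.01, and Auts2, at -7.61, is outside the axis and not drawn.

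Outside the 10 genes, 33 further Polycomb genes were listed and 30 were tested. Of these 14 were higher, 10 were lower and 6 did not pass, with a median log2 fold change of 0.12. Of the 26 PRC1 genes on that list 24 were tested, of which 9 were higher and 9 lower. Scml2 (2 counts in all) and Scml4 (3 counts over the knockout-labelled and 1 over the control libraries) were below the filter. Over all genes tested 71.5% were called, 32.7% as higher and 38.8% as lower. These counts are therefore read against a background in which most genes passed. Mga and L3mbtl2, both of the Pcgf6-containing complex, rose together with Pcgf6, by log2 fold changes of 1.16 and 1.12, while E2f6 of the same complex had one of -0.13 that did not pass (edgeR quasi-likelihood adjusted p = 0.087). The paralogs Rybp and Yaf2, which take the place of CBX proteins in variant PRC1, moved apart: Rybp had a log2 fold change of 0.51 and Yaf2 one of -0.99. Among the polyhomeotic genes, which link PRC1 complexes to each other, Phc3 was higher (0.80), Phc1 was lower (-0.70), and Phc2 (-0.05) did not pass. Kdm2b, which brings variant PRC1 to CpG islands, was higher (0.52), and so was the deubiquitinase Usp7 (0.72). The call of Bcor as higher (log2 fold change 0.14, edgeR quasi-likelihood adjusted p = 0.0497) was lost without knockout-labelled replicate 2 or control replicate 3, under upper-quartile or library-total scaling and with no filter (adjusted p 0.0533 to 0.325 over these settings). That of Scmh1 as lower (-0.22) was lost without knockout-labelled replicate 1 or 3 or without control replicate 3. Pcgf5 passed as higher without knockout-labelled replicate 1 or 3 or control replicate 1, under relative log expression scaling and with the 20 highest genes left out. Cbx6 passed as higher without knockout-labelled replicate 3 or control replicate 1, under relative log expression scaling, with the filter of 5 CPM and with DESeq2.

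Auts2, a partner of the Pcgf5 and Pcgf3 complexes, had 3 counts over the knockout-labelled libraries and 681 over the control libraries. The ratio of control to knockout-labelled abundance was 219 (exact 95% counting interval 74.7 to 1066, which covers counting error only).

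Genes of complexes that oppose Polycomb are read against the background of 32.7% of tested genes higher and 38.8% lower. The 16 trithorax, COMPASS, Nsd and Setd2 genes listed encode histone H3 methyltransferases and their partners. Of these, 14 were higher and 1 was lower, with a median log2 fold change of 0.50. Ash1l, a methyltransferase that counteracts PRC2, averaged 179.9 ± 7.26 CPM in the knockout-labelled and 59.7 ± 6.86 CPM in the control libraries (SD, n = 3 each; log2 fold change 1.59). Kmt2d, Kmt2c and Nsd2 had log2 fold changes of 1.19, 1.15 and 1.09, and Nsd3 was lower (-0.39). Of 20 tested SWI/SNF genes, which encode a remodeller that evicts Polycomb, 12 were higher, among them Arid1a (1.02) and Actl6a (0.99), and 4 were lower, among them Smarcd3 (-0.98) and Phf10 (-0.58). Of 12 genes for the enzymes that remove the Polycomb marks and for their partners, 6 were higher and 2 lower. Bap1, the H2A deubiquitinase, did not pass (log2 fold change 0.03, edgeR quasi-likelihood adjusted p = 0.60). The H3K27 demethylase genes moved apart: Kdm6a averaged 40.6 ± 1.16 CPM in the knockout-labelled and 28.8 ± 1.34 CPM in the control libraries (log2 fold change 0.50), and Kdm6b averaged 77.8 ± 6.80 CPM in the knockout-labelled and 116 ± 3.19 CPM in the control libraries (log2 fold change -0.58).

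Genes of DNA replication were also higher in the knockout-labelled libraries. Ezh2 and Eed are known as E2F target genes in dividing cells. Of 32 S phase genes, 25 were higher and 1 (Gins4) was lower, beside 32.7% higher and 38.8% lower among all genes tested, and their median log2 fold change was 0.78, beside -0.04. Their summed level was 6108 to 6192 CPM in the knockout-labelled and 3841 to 3973 CPM in the control libraries. Ccne2, the cyclin of S phase entry, had a log2 fold change of 2.18, and Cdc6 and Rrm2 had values of 1.61 and 1.51. Gins4 was no longer called with any single library left out. Of 12 E2F and retinoblastoma family genes 8 were higher, led by E2f7 (1.79) and E2f3 (1.21), and 3 were lower, Rbl2 (-0.99), Tfdp2 (-0.84) and Rb1 (-0.72). The part of cell cycle state in the Polycomb values was not tested, and in bulk RNA a different number of cells of a kind and a different amount of RNA per cell cannot be told apart.

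The summed level of the Hox genes was lower in the knockout-labelled libraries. The 39 Hox genes, which pattern the body axis and are textbook Polycomb targets, summed to 44.3, 42.8 and 45.3 CPM in the knockout-labelled libraries, against 426, 422 and 430 CPM in the control libraries. This sum uses every listed Hox gene, whether or not it passed the filter. Over all genes tested, 38.8% were lower and 32.7% higher. Of the 23 Hox genes tested, 17 were lower, 1 (Hoxd8) was higher and 5 did not pass. The other 16 did not exceed 0.484 CPM in any library, and 13 of them had no counts in the knockout-labelled libraries. Of the 23 tested, 11 lay under 0.5 CPM in every knockout-labelled library, and none did so in every control library. A gene that passed the filter through the control group alone had to differ, so these counts are no measure of how Hox genes behave as a class.

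The highest Hox levels of the control libraries were in the HoxB cluster. Hoxb9 had 0.376 ± 0.138 CPM in the knockout-labelled and 222 ± 6.84 CPM in the control libraries (SD, n = 3 each), from 41 counts over the knockout-labelled and 25308 over the control libraries (log2 fold change -9.19, edgeR quasi-likelihood adjusted p = 3.6e-10). Hoxb7 had 1 count over the knockout-labelled libraries and 2165 over the control libraries, a control to knockout-labelled ratio of 2092 (exact 95% counting interval 375 to 82666). Hoxc9 and Hoxc8 had 0 counts in the knockout-labelled libraries and 161 and 49 in the control libraries, at least 51.9-fold and 15.8-fold lower with 3 counts over a group taken as the floor. Hoxd8 was the exception, at 9.45 ± 0.487 CPM in the knockout-labelled and 5.26 ± 0.775 CPM in the control libraries (log2 fold change 0.84).

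**Figure D4:**
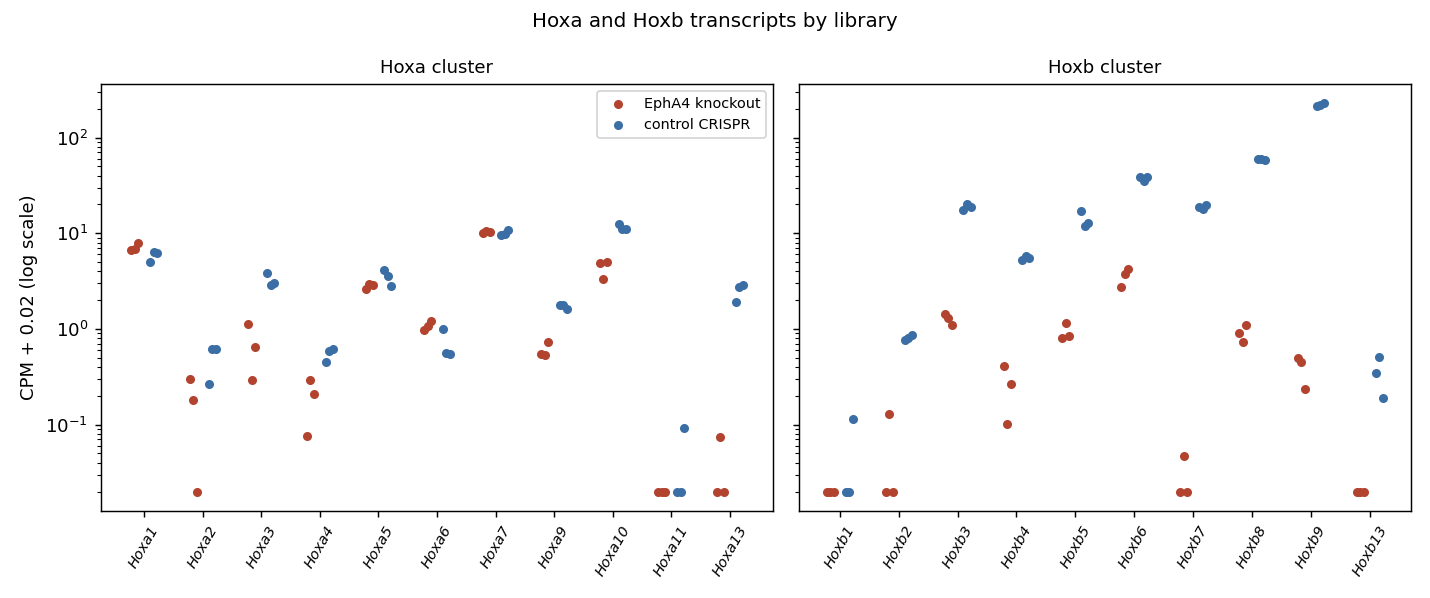
Level of the Hoxa and Hoxb genes in each library, in CPM on a log axis with 0.02 CPM added so that 0 can be drawn; each point is 1 library, with EphA4 knockout left of control CRISPR within each gene. Hoxb9 averages 0.376 CPM in the knockout-labelled and 222 CPM in the control libraries, while Hoxa7 lies near 10 CPM in both groups.

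Of 82 further target genes, developmental regulators and the Cdkn2a locus among them, 38 were tested, and of those 28 were lower, 5 were higher and 5 did not pass, where 38.8% of all tested genes were lower and 32.7% higher. The same limit holds here, since 13 of the 38 lay under 0.5 CPM in every knockout-labelled library and passed the filter through the control group, so the counts are no measure of the list. The summed level of all 82 was 839 to 873 CPM in the knockout-labelled and 1086 to 1124 CPM in the control libraries. Without Cdkn2a, the other 81 summed to 728 to 753 CPM in the knockout-labelled and 770.1 to 797 CPM in the control libraries. That smaller difference is a net one, in which the rise of Nr2f2 given below offsets falls of other genes. Gata4, a regulator of heart and gut endoderm, had 0 counts in the knockout-labelled and 807 in the control libraries, at least 259.9-fold lower. Prrx1, a mesenchymal homeobox gene, had 2 counts over the knockout-labelled and 2298 over the control libraries, a control to knockout-labelled ratio of 1110 (exact 95% counting interval 307 to 9173). Nr2f2, a nuclear receptor, was the largest rise, at 185 ± 10.4 CPM in the knockout-labelled and 56.1 ± 4.80 CPM in the control libraries (SD, n = 3 each; log2 fold change 1.72).

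Cdkn2a, which encodes the cell cycle inhibitors that Bmi1 and Ezh2 are known to repress, was picked out after its value was seen. It averaged 124 ± 6.04 CPM in the knockout-labelled and 318 ± 4.16 CPM in the control libraries (SD, n = 3 each; log2 fold change -1.35, edgeR quasi-likelihood adjusted p = 1.7e-08). Its neighbour Cdkn2b, picked in the same way, averaged 25.8 ± 3.19 CPM in the knockout-labelled and 63.3 ± 2.55 CPM in the control libraries (log2 fold change -1.29). Counts per gene do not separate the products of Cdkn2a. Of 8 fibroblast markers 5 were tested, of which 4 lay under 0.5 CPM in every knockout-labelled library and passed the filter through the control group, so no count of calls is given. The sum of all 8 was 1.91 to 2.03 CPM in the knockout-labelled and 48.2 to 51.7 CPM in the control libraries. Of those 8, 3 had no counts in the knockout-labelled libraries, while Col1a2 had 29 counts there and 5 in the control libraries. Leukocyte markers summed to 4.30 to 4.79 CPM in the knockout-labelled and 17.5 to 19.9 CPM in the control libraries, with Cd3e at 0 in all 6. Only Cd68 among these markers was tested (log2 fold change -2.10). No other leukocyte marker exceeded 0.503 CPM in any library, so that sum was mostly Cd68. Several listed targets, such as Prrx1, are also known from mesenchymal cells. The part of other cell types in the target values was not tested.

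The genes whose pattern over the 6 libraries was nearest to that of Ezh2 were Ccnk, Actn1, Iqgap2, Hnrnpr and Supt6, with a root mean square difference of 0.02 to 0.04 on the log2 scale among 9610 genes compared. Those nearest to Ezh1 were Tldc1, Wwox, Pcmtd1, Ctsl and Epb41l1, with differences of 0.03 to 0.04. The log2 fold changes were 0.49 to 0.53 in the first set, beside 0.50 for Ezh2, and -1.20 to -1.12 in the second, beside -1.16 for Ezh1. Each gene was centred on its own control mean before the search, so close fold changes follow from how these genes were picked.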

How the data were processed

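RNA of 6 MOC2 libraries was measured, and the values are raw counts per gene symbol, as deposited by the authors without normalization, in 1 table. The submitters' processing notes name STAR and GRCm39, without versions; the counting tool, the strand setting and the annotation are not stated in those sources. The table's 55418 symbols equal those of GENCODE M21, which gave chromosomes and exon lengths, on an earlier build.

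Counts were filtered with filterByExpr, scaled by TMM and tested with edgeR 4.0.16 in R 4.3.3 (glmQLFit and glmQLFTest, two-sided, group as the only term), with Benjamini-Hochberg adjustment over 15199 genes and a threshold of 0.05. CPM are TMM-scaled for tested genes and use library totals for others. 1 count equals 0.0239 to 0.0285 CPM. Floors and intervals cover counting error only. Ratios used 0.5 added counts and exact permutation tests. Family shares were chosen after the data were seen.

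The 10 genes and all lists were chosen with earlier results of these data known. Every one of the 10 was named; other PRC2 and PRC1 genes were free to name; other lists gave up to 4 largest rises and 4 largest falls, of which a part is printed; nearest patterns gave 5 genes each of average log2 CPM 3 or more. Same-numbered replicates did not deviate together (correlations -0.003, 0.029 and 0.008), so the numbers pair no samples. Simulated counts for 15199 genes held 50 changed genes for each of the folds 1.5, 2, 4 and 8, and no others. The test recovered 21, 32, 40 and 48 of them, in that order, and 6.62% of its calls were false. In the data, by contrast, 71.5% of genes tested were called. The Benjamini-Hochberg cutoff depends on how many genes change, so the simulated rates do not give the recovery or the false share of the real comparison. Alternatives were other scalings and filters, limma-voom 3.58.1, DESeq2 1.42.0, a replicate block, a test against 1.5-fold, the 20 highest genes left out and each library left out. Figures used matplotlib 3.10.9. Of the tested PRC1 genes, 1 is not reported here. The level of 0.5 CPM used to describe lists was chosen after the data were seen.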

Additional observations from a re-analysis of the deposited data

How the results depend on the processing

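The 10 Polycomb genes kept their direction under each of the 16 alternatives, and kept their calls under 15. With the fold tested against 1.5, 5473 genes were called, and of the 10 genes 2 were called higher (Bmi1 and Eed) and 2 lower (Ezh1 and Phf19). Under that test 7 other Polycomb genes were higher and 6 lower. Of the classical targets, Hox genes included, 1 was higher and 37 were lower, against 6 higher and 45 lower in the main test. The limit given above for targets that passed the filter through the control group holds for these counts too. With a filter of 5 CPM in 3 libraries, 22 classical targets were lower, because fewer genes were tested, against 45 without it. The log2 fold change ranged from 0.43 to 0.58 for Ezh2, from -1.22 to -1.10 for Ezh1 and from -3.30 to -3.02 for Phf19. The log2 ratio of Ezh2 to Ezh1 ranged from 1.61 to 1.68. Other scalings gave a median log2 fold change over all genes of -0.05 to -0.001, beside -0.04.

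With a replicate block, 6 of the 10 genes were higher and 4 lower, 10339 genes were called in all, and the log2 ratio of Ezh2 to Ezh1 was 1.65 (exact p = 0.25, the smallest that 3 pairs allow). The block moved no count by over 1.5 times. Depth limits genes of few counts, such as Hoxb7 and Auts2 in the knockout-labelled libraries, to bounds and wide intervals.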
